A study of Mus musculus with 8 samples.

Results

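The genes described here are 9 markers of lymphocytes and plasma cells: Cd3d, Cd3e, Cd3g, Cd4, Cd8a, Lck, Ptprc, Ms4a1 and Jchain. They were taken as the experimental probes whose accession belongs to 1 of these genes, which gave 11 probes of the 55681 on the array and 9 genes of 20145 named ones. Of the 9 genes, 8 had a probe that could be tested, of 14311 genes tested in all. Cd8a had none. Cd4 and Cd8a had a pair of probes each, and every other gene had 1.

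RNA was measured on 8 arrays of 2 colours, all on 1 slide with 2 rows of arrays. Each array compared 1 hepatocellular carcinoma (HCC, cancer of the liver's parenchymal cells) of a male miR-122 KO mouse, labelled with Cy5, with liver of an age-matched male miR-122 floxed mouse, labelled with Cy3. All mice had a mixed C57BL/6J and 129S/Svj background. miR-122 is the most abundant microRNA of hepatocytes. The labels give no ages, do not say how or in which cells the gene was deleted, and do not settle whether the control RNA was that of 8 livers or of 1 pool. They call the tumors biological replicates, but name no animals, so p-values measure the spread between these 8 arrays. Every array had the same dye orientation, and knockout liver without a tumor was not analysed here. An effect of the dyes, of the lost microRNA and of the tumor therefore cannot be told apart.

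T cells recognise antigen through a receptor that signals through the CD3 chains, and the kinase Lck starts that signal with the help of the co-receptors CD4 or CD8. B cells carry the membrane protein CD20, the product of Ms4a1, and plasma cells, which secrete antibody, make the J chain that joins antibody units into larger forms. Healthy liver holds resident lymphocytes and a large population of macrophages, the Kupffer cells, and liver tumors hold varying numbers of both. These arrays measured whole tissue, so more cells of a type and more RNA per cell cannot be told apart.

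Array 8 stood apart from the others. The upper quartile of its Cy5 signal was 213, against 378 to 606 on the other arrays, and both its channels, the control more so, held skeletal muscle transcripts. Over 4 tested genes of a list of muscle genes, the mean control level was 12.95 on the log2 scale on array 8 and 6.98 to 7.20 on the others. Their mean tumor level was 9.50 on array 8 and 7.05 to 7.30 on the others. On the same array the mean tumor level of 26 pan-leukocyte genes was 8.32, against 9.56 to 10.18 on the others. The mean control level of those genes was highest on array 6, at 9.20, against 8.43 to 8.84 on the others. Hepatocyte genes were bright in both channels, with mean levels of 16.1 to 16.8 in tumor and 16.9 to 17.3 in control. The share of probes well above background was 38.5% to 51.9% in tumor and 45.1% to 54.3% in control, and the precision of the values below is limited by the number of arrays.

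The genes Cd3g, Cd3d and Cd3e lie close together on chromosome 9 within 40.1 kb, and the start sites of Cd3g and Cd3d, which are read in opposite directions, lie 1355 bases apart. Lck lies on chromosome 4 and has a pair of start sites in the annotation. Jchain lies on chromosome 5. These genes were chosen for display because the neighbouring CD3 genes had different tumor ratios and Lck and Jchain rose. The 250 bases before their start sites follow, and any part of these sequences in the ratios was not tested. The sequences are from RefSeq, build GRCm38.p6, and are written in the direction of the gene from 5′ to 3′. Capitals mark the ETS core motif AGGAAG and the RUNX core motif TGTGGT on either strand, so that CTTCCT is AGGAAG read on the other strand. The array was designed on build mm9, and its files were used here without probe positions.
Cd3g (chr9:44980432-44980681, minus strand): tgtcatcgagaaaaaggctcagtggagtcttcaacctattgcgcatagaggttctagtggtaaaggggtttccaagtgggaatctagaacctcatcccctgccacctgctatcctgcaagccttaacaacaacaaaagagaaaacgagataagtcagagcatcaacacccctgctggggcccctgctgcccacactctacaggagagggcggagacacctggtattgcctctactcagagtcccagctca
Cd3d (chr9:44981536-44981785, plus strand): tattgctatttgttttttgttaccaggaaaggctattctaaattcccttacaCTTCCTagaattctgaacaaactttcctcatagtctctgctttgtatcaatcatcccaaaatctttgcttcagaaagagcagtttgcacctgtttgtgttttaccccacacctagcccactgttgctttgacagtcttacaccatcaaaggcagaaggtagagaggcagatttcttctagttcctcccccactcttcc
Cd3e (chr9:45009612-45009861, minus strand): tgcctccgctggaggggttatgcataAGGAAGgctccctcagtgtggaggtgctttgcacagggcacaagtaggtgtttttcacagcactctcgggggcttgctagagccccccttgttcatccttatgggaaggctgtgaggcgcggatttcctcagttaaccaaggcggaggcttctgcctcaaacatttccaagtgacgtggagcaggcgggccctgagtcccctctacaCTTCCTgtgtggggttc
Lck, upstream start (chr4:129573642-129573891, minus strand): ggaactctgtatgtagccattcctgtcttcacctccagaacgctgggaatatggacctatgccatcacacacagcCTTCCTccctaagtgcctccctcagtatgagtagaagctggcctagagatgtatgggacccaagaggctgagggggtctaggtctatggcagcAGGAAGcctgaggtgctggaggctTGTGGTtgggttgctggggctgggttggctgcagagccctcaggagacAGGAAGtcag
Lck, downstream start (chr4:129558373-129558622, minus strand): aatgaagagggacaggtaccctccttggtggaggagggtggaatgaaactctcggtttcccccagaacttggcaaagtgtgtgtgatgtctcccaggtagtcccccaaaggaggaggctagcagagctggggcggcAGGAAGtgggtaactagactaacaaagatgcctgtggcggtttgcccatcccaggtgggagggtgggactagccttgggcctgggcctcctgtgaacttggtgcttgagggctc
Jchain (chr5:88527898-88528147, minus strand): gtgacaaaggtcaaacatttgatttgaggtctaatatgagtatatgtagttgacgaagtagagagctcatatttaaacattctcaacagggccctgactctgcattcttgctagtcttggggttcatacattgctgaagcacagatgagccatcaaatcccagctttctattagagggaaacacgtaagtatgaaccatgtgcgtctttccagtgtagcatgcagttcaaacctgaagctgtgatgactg

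RefSeq promoters were matched for 7 of the 9 genes, with 9 start sites in all. AGGAAG stood in 6 of the 9 promoters, against 29.5% of 32851 promoters of the same length. The 9 are not independent, since Ptprc and Lck have a pair of promoters each and those of Ptprc overlap and share 1 AGGAAG site. By gene, AGGAAG stood before Ptprc, Lck, Cd3d and Cd3e, and not before Cd3g, Jchain or Cd8a. TGTGGT stood in 1, the upstream Lck promoter, against 14% of all. The octamer ATGCAAAT, searched because it occurs in many B-lineage promoters, stood in 0 of the 9, against 1.6% of all. TATAAA stood in 1, a promoter of Ptprc, against 12.4% of all. The promoter of Cd3g held neither AGGAAG nor TGTGGT, while that of Cd3d held AGGAAG 198 bases before its start site and that of Cd3e held it 224 and 17 bases before. A match of these letters is a description of the sequence and shows no binding.

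Of the 8 genes tested, Jchain, Lck and Ptprc were higher in tumor and 0 were lower. A call required a change of at least 2-fold with an adjusted p below 0.05 (limma, Benjamini-Hochberg over all tested genes). By that rule 1365 of all tested genes (9.54%) were called higher and 850 (5.94%) lower. The median log2 ratio of the 8 genes was 0.52, against 0.03 for all tested genes. The 3 genes that rose are a secreted component of antibody, a T cell kinase and a phosphatase carried by all white blood cells. The CD3 chains and the B cell gene Ms4a1 had ratios that did not meet the rule. In all 8 genes the tumor and control levels overlapped between arrays; over all tested genes, tumor lay above control without overlap in 8.32% and below it in 8.47%.

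**Figure D1:**
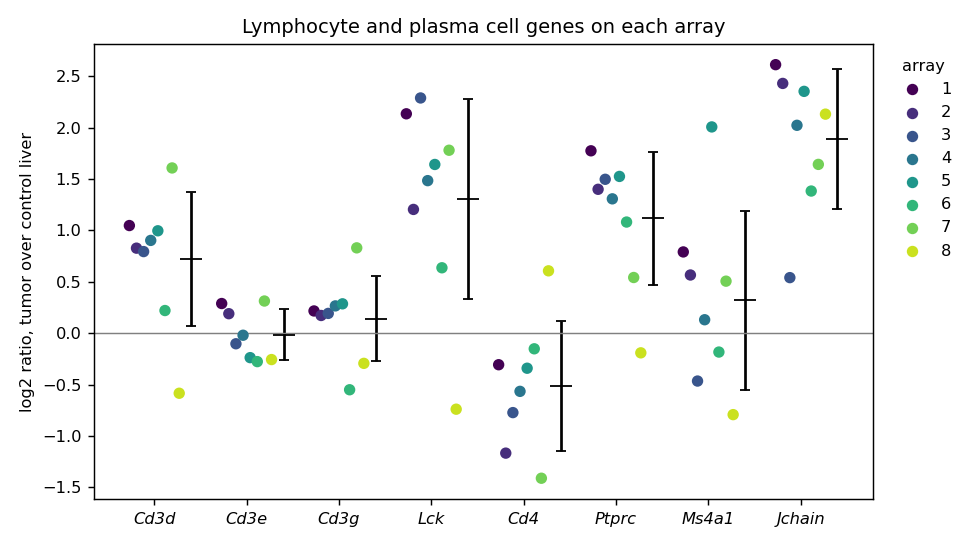
Log2 ratio of tumor over control liver (vertical axis) for the 8 tested genes on each of 8 arrays (coloured points), with the mean and SD (black bars). Jchain lies above 0 on all 8 arrays, Lck and Ptprc on 7, and array 8 gives the lowest ratio of Cd3d, Lck, Ptprc and Ms4a1 and the highest of Cd4.

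Jchain had the largest ratio of the 8 genes. Its tumor level on the log2 scale ran from 10.50 through a median of 12.25 to 13.52, and its control level from 8.37 through 10.32 to 11.58. Tumor was above control on all 8 arrays, as for 2450 of all tested genes (17.1%), although tumors 3 and 8 lay below the brightest controls. The log2 ratio was 1.89 ± 0.68 (SD, n = 8), which is 3.71-fold, with an adjusted p of 8.96e-05 by limma and a 95% confidence interval of 1.41 to 2.37. The ratio was smallest on array 3 (0.54) and largest on array 1 (2.61). Leaving out each array in turn gave 1.79 to 2.08.

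Both channels of Jchain spread widely. The SD over arrays was 1.15 in tumor and 1.12 in control, larger than that of the ratio, and the channels moved together from array to array with a Pearson r of 0.82. The exact two-sided permutation p of r was 0.0137, which is 0.110 after adjustment over the 8 genes for which it was computed. Spearman's rho was 0.86, with an exact permutation p of 0.0107 (adjusted 0.0857). Without the 2 arrays farthest from the median tumor level r was 0.88, and with the mean of each slide row removed it was 0.82. The median r between the channels of the same array over 14303 genes was 0.19, with quartiles of -0.15 and 0.49. The correlation was computed after the values had been seen. The control channels of arrays 4, 5, 6 and 7 held more Jchain signal than those of the others, at 10.65 to 11.58 against 8.37 to 9.98. The same arrays had the brightest tumors, at 12.29 to 13.52 against 10.50 to 12.21. Signal on 1 array shares its spot and its hybridisation, and the part of these in the correlation was not tested.

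Ptprc encodes CD45, the tyrosine phosphatase on the surface of white blood cells of every kind. Its tumor level ran from 7.52 through a median of 9.71 to 10.04 and its control level from 7.71 through 8.31 to 8.78. All tumors except tumor 8 lay above every control. The log2 ratio was 1.12 ± 0.64 (SD, n = 8), or 2.17-fold, with an adjusted p of 0.00142 by limma and a 95% confidence interval of 0.66 to 1.57. The ratio was 1.31 to 1.78 on arrays 1 to 5, then 1.08 on array 6, 0.54 on array 7 and -0.19 on array 8. In the slide row that holds arrays 5 to 8 the mean was 0.74, with an adjusted p of 0.130, and the call was lost. In the other row it was 1.50.

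Lck encodes the kinase that phosphorylates the CD3 chains when a T cell receptor is engaged. Its tumor level ran from 7.42 through a median of 9.94 to 10.64 and its control level from 7.68 through 8.22 to 9.35. The tumor levels lay at 9.39 or more except on array 8, and all of these lay above every control. The log2 ratio was 1.30 ± 0.98 (SD, n = 8), or 2.47-fold, with an adjusted p of 0.00496 by limma and a 95% confidence interval of 0.63 to 1.97. It was above 0 on 7 arrays, from 0.64 on array 6 to 2.29 on array 3, and -0.74 on array 8. Without array 8 the ratio was 1.60. In the slide row of arrays 5 to 8 it was 0.83 with an adjusted p of 0.227, and the call was lost, against 1.78 in the other row.

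The CD3 delta chain gene, Cd3d, was not called. Its tumor level ran from 6.78 through 8.47 to 8.82 and its control level from 7.22 through 7.38 to 8.33. The log2 ratio was 0.73 ± 0.65 (SD, n = 8) with an adjusted p of 0.0139 by limma and a 95% confidence interval of 0.27 to 1.19, and 5480 of all tested genes likewise passed on p but not on size. Tumor was above control on 7 arrays, from 0.22 on array 6 to 1.61 on array 7. On array 8 the ratio was -0.58, and the tumor channel was not well above background. Without arrays 6 and 8, a choice made after their values had been seen, the ratio was 1.03 with an adjusted p of 4.4e-04, which met the rule. With the processed signals it was 0.57 (adjusted p = 0.197) and in the slide row of arrays 5 to 8 it was 0.56 (adjusted p = 0.315), where it passed on neither p nor size.

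Cd3g, the gene of the gamma chain, had a tumor level from 6.36 through 7.24 to 7.79 and a control level from 6.66 through 6.97 to 7.99. Its log2 ratio was 0.14 ± 0.41 (SD, n = 8), with an adjusted p of 0.414 by limma and a 95% confidence interval of -0.17 to 0.45. The ratio was 0.17 to 0.29 on arrays 1 to 5 and ran from -0.55 on array 6 to 0.83 on array 7. The control of array 6 was brighter than every tumor and every other control. Both Cd3d and Cd3g are dim probes, and the offset of 50 added to every signal draws the ratios of dim probes towards 0. With an offset of 16 the ratio was 0.82 for Cd3d and 0.17 for Cd3g. With the processed signals, which add no offset, it was 0.57 for Cd3d and 0.04 for Cd3g. Neither gene was called in these settings.

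Cd3e, the gene of the epsilon chain, had the narrowest spread. Its tumor level ran from 8.64 through 9.23 to 9.43 and its control level from 8.90 through 9.21 to 9.36. The log2 ratio was -0.01 ± 0.25 (SD, n = 8), above 0 on 3 arrays, with an adjusted p of 0.923 by limma and a 95% confidence interval of -0.23 to 0.20. That interval leaves out the ratio of 1 that a call requires. With the signals as processed by the scanner software the ratio was -0.30, with an adjusted p of 0.0328 and no call.

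**Figure D2:**
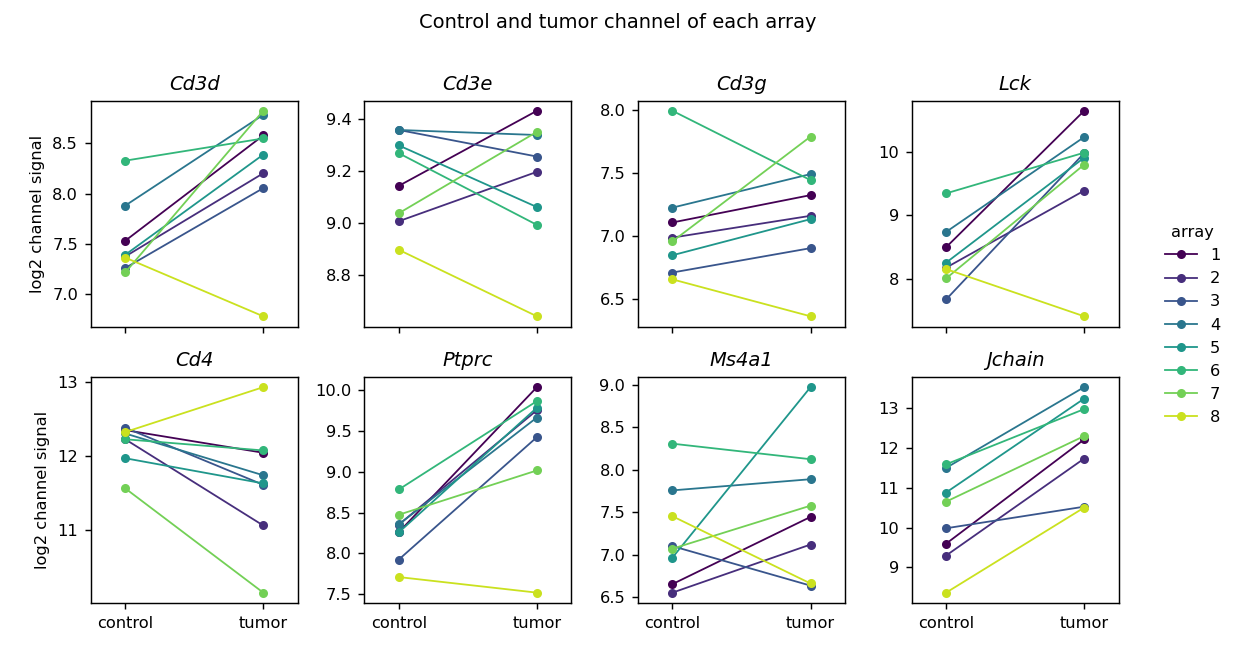
Log2 channel signal in control liver and in tumor for the 8 tested genes, with 1 line per array and a vertical axis of its own in each panel. Tumor 8 is the lowest tumor for Cd3d, Cd3e, Cd3g, Lck, Ptprc and Jchain, and control 6 is the highest control for Cd3d, Cd3g, Lck, Ptprc, Ms4a1 and Jchain.

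The co-receptor genes gave less clear values. The brighter Cd4 probe (A_55_P2013655) had a tumor level from 10.15 through 11.68 to 12.93 and a control level from 11.56 through 12.26 to 12.38. Its log2 ratio was -0.51 ± 0.63 (SD, n = 8), below 0 on all arrays except array 8, with an adjusted p of 0.0514 by limma. The 95% confidence interval, which is not adjusted, was -0.96 to -0.07. As each array was left out, the adjusted limma p ran from 0.0069 (without array 8, ratio -0.67) to 0.12 (without array 2, ratio -0.42). The other Cd4 probe (A_52_P383089), which lies in 10 spots, was well above background in 3 tumors and 5 controls, with levels of 6.28 to 6.50 over both channels. Its log2 ratio was 0.03 ± 0.08 (SD, n = 8). The bright probe thus lay far above the floor on every array and the dim probe close to it, and the annotation shows 0 other genes that overlap Cd4. Why the probes of this gene disagree was not tested, so the ratio of the bright probe is given for that probe alone.

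Cd8a marks cytotoxic T cells and was near the floor. Its probe in 10 spots (A_52_P443334) was well above background in 3 tumors (tumors 4, 5 and 6) and 1 control (control 4), with tumor levels of 6.05 to 6.66 and control levels of 6.07 to 6.41. The log2 ratio of this probe was 0.23 ± 0.13 (SD, n = 8), above 0 on 7 arrays, and it was not tested because too few channels were well above background. The other Cd8a probe (A_52_P150547) was well above background on array 4 alone, in both channels, at 6.97 in tumor and 7.85 in control. Cd8b1, which encodes the partner chain of CD8 and was chosen after its value was seen, had a log2 ratio of 0.21 ± 0.35 (SD, n = 8) with an adjusted p of 0.183 by limma.

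**Figure D3:**
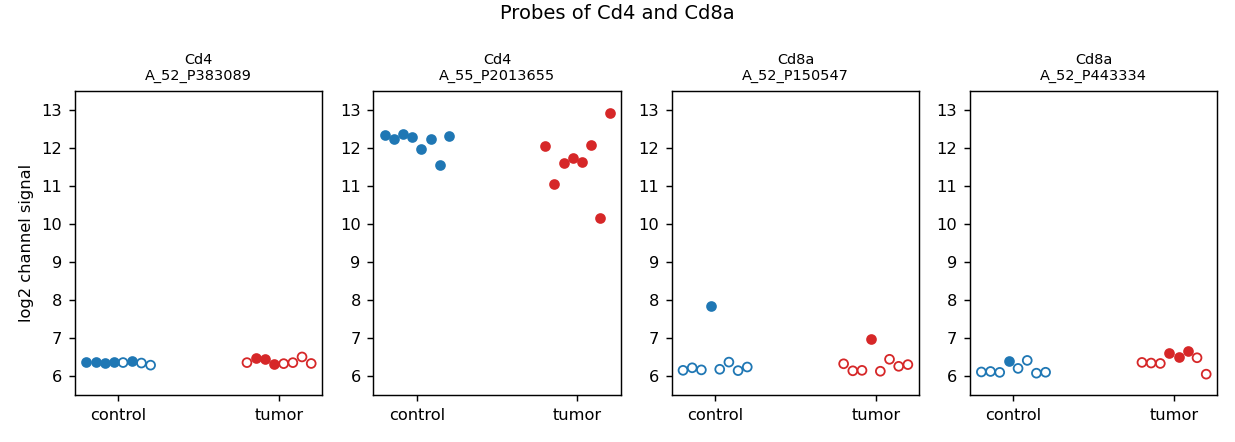
Log2 channel signal of both probes of Cd4 and both probes of Cd8a in control liver (blue) and tumor (red), 1 point per array, filled where the signal was well above background. The bright Cd4 probe lies between 10.15 and 12.93 and the other Cd4 probe between 6.28 and 6.50, while 1 Cd8a probe is filled on array 4 alone.

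Ms4a1 had the largest SD after Lck. Its tumor level ran from 6.63 through 7.51 to 8.97 and its control level from 6.55 through 7.08 to 8.31. The log2 ratio was 0.32 ± 0.87 (SD, n = 8), above 0 on 5 arrays, with an adjusted p of 0.337 by limma and a 95% confidence interval of -0.28 to 0.92. Tumor 5 was the brightest tumor (ratio 2.01), and without array 5 the mean was 0.08. Arrays 3, 6 and 8 had ratios of -0.47, -0.18 and -0.79.

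The ratios of the genes were compared with each other within arrays, over 28 pairs, by an exact two-sided sign-flip permutation test with Benjamini-Hochberg adjustment over the pairs. The smallest p that 8 arrays allow is 0.0078, which is 0.0386 after adjustment. Among Lck and the CD3 chain genes, Lck exceeded Cd3d by 0.58 on 7 arrays (coded as Cd3d minus Lck, -0.58 ± 0.52). Cd3d in turn exceeded Cd3g by 0.59 ± 0.36 and Cd3e by 0.74 ± 0.51, each on 7 arrays and each at an adjusted permutation p of 0.0386. Cd3e minus Cd3g was -0.15 ± 0.29, with an adjusted permutation p of 0.264. Jchain exceeded Ms4a1 on all 8 arrays (Ms4a1 minus Jchain, -1.57 ± 0.76, adjusted permutation p = 0.0386). Lck minus Ptprc was 0.19 ± 0.61 (adjusted permutation p = 0.446) and Lck minus Jchain -0.59 ± 1.29 (0.280). These compare ratios of probes that differ in brightness, and the offset moves dim probes more than bright ones.

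Across arrays, 0 of the 28 pairs of genes were correlated after adjustment, and 7 had an unadjusted exact permutation p under 0.05 for Pearson's r. Cd3d and Cd3g had r = 0.86, with exact two-sided permutation p = 0.00702 and an adjusted p of 0.109, and Spearman's rho = 0.88 (exact permutation p = 0.00724, adjusted 0.203). Without arrays 7 and 8, the 2 farthest from the median of Cd3d, r was 0.96. Cd3d and Lck had r = 0.87 (exact permutation p = 0.00893, adjusted 0.109) and rho = 0.62 (p = 0.115), and r = 0.74 without those arrays. Within slide row 1 these r were 0.42 and 0.22, and within row 2 0.86 and 0.97, with 4 arrays in each. Lck and Ptprc had r = 0.79 (exact permutation p = 0.0295, adjusted 0.169) and rho = 0.64 (p = 0.0962). Their r was 0.22 without arrays 6 and 8, the 2 farthest from the median of Lck. Within slide row 1, which holds neither of those arrays, their r was 0.67, and within row 2 it was 0.71. How far the relation rests on arrays 6 and 8 is therefore not settled. The bright Cd4 probe ran opposite to Cd3d (r = -0.85, exact permutation p = 0.0117, adjusted 0.109, and rho = -0.55, p = 0.171). This opposite relation rests on arrays 7 and 8, since r was -0.26 without them. Its sign also differed between the slide rows, at 0.81 in row 1 and -0.96 in row 2. Jchain had r = 0.02 with Cd3d, -0.19 with Lck and 0.06 with Ptprc (exact permutation p = 0.960, 0.632 and 0.889). All ratios of an array share 1 tumor, 1 control and 1 normalization.

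The mean ratio of Cd3d, Cd3e, Cd3g and Lck was 0.92 on array 1, 0.60 to 0.79 on arrays 2 to 5, 0.01 on array 6, 1.13 on array 7 and -0.47 on array 8. Of 14295 other genes, the 10 most like this mean over the 8 arrays were Nt5c3b (r = 0.98), Cd5 (0.98), Nvl (0.98), Comtd1 (0.97), Gpn3 (0.97), Traf1 (0.96), Gtf2h3 (0.95), Mapk7 (0.95), Hspb11 (0.95) and Mrps25 (0.94). Cd5, an inhibitory receptor on T cells, had r = 0.96 without array 8, a log2 ratio of 0.64 ± 0.59 (SD, n = 8) and no call. Of the 10, Comtd1 was called higher and the others were not called. A rank among so many genes over 8 arrays is a description, and r of the 10 genes without array 8 ran from 0.86 to 0.96.

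Counts of called genes in the lists that follow are to be read against the 9.54% called higher and 5.94% called lower among all tested genes. Of 25 further genes of the T cell receptor complex and its signalling, 21 were tested, 1 was higher and 0 lower, and the median log2 ratio was 0.22. The one that rose was Thy1, a surface protein of T cells and also of fibroblasts and nerve cells (1.46 ± 0.73, SD, n = 8, adjusted p = 6.1e-04 by limma). A further 9 of the 21 passed on p but not on size, as did 5480 of all 14311 tested genes. With the signals as processed by the scanner software, 8 of the list were called higher and its median was 0.52, while 2008 of all genes were called higher. Those signals add no offset and were also not normalized by loess here, and the cause of the difference was not tested. Zap70, the kinase that binds phosphorylated CD3 chains, was the brightest of the list and had a ratio of -0.63 ± 1.37 (adjusted p = 0.226).

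Of the cytotoxic T and NK cell list, 14 of 22 genes were tested and 1 was higher, with 0 lower and a median of 0.19. It was Ccl5, a chemokine of activated T cells and other cells (1.23 ± 1.17, SD, n = 8, adjusted p = 0.0153 by limma), and without array 7 the count was 0. Nkg7, a granule protein of killer cells, had a ratio of 0.20 ± 0.15. Of the regulatory, helper and checkpoint list, 17 of 21 were tested and 1 was higher, with 0 lower and a median of 0.25. It was Ccr7, the receptor that guides lymphocytes and dendritic cells to lymph nodes (1.12 ± 0.69, adjusted p = 0.0019). The count for this list was 0 without array 5 and 2 without array 6 or array 8. Tnfrsf9, a co-stimulatory receptor of activated T cells, had a ratio of -0.10 ± 0.35 and was not called. With the processed signals the counts were 3 higher for the first list, and 5 higher and 1 lower for the second, whose median was then 0.56.

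Of the B cell list, 20 of 23 genes were tested, 2 were higher and 0 lower, and the median was 0.28. Blnk, the adaptor protein of B cell receptor signalling, rose by 1.76 ± 0.55 (SD, n = 8, adjusted p = 4.3e-05 by limma) on all 8 arrays. Cd72, an inhibitory receptor of B cells, rose by 1.36 ± 0.86 on 7 arrays. With the processed signals 4 of the list were higher.

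Of 17 plasma cell and antibody secretion genes, 12 were named on the array and 10 tested. Of these 0 were higher and 1 lower, and the median was 0.34. The gene that fell was Pigr, the receptor with which epithelial cells carry J chain-containing antibody across the cell. Its log2 ratio was -1.95 ± 0.75 (SD, n = 8, adjusted p = 1.3e-04 by limma), below 0 on all 8 arrays, while Jchain was above 0 on all 8. Xbp1, a transcription factor of secretory cells including hepatocytes and plasma cells, had a ratio of -0.03 ± 0.41. A further 5 genes passed on p but not on size, as did 5480 of all tested genes. These 5 all had ratios above 0, from 0.55 to 0.96. However, 1 of them was well above background in 7 tumors and 1 control. It entered the test through its tumor channel alone, which favours a ratio above 0. The count of higher genes was 1 without array 4, 6 or 8, and 3 with the processed signals. The constant regions of antibody genes were not analysed here.

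Genes that white blood cells of many kinds share rose in part. Of 26 pan-leukocyte genes, all tested, 10 were higher and 0 lower, and their median log2 ratio was 0.88. Spn, the surface protein CD43, rose by 2.10 ± 0.87 (SD, n = 8) on all 8 arrays, and Lsp1, an actin-binding protein, by 1.99 ± 1.19 on 7. Rac2, a GTPase of blood cells, rose by 1.44 ± 0.95 and Evi2a by 1.40 ± 0.73. Whether this list differs from the T or B cell lists was not tested.

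Markers of other white blood cells moved beside Ptprc. Of 10 neutrophil genes 5 were higher and 0 lower. Among them were the calcium-binding proteins S100a9 (2.42 ± 1.31, SD, n = 8) and S100a8 (2.31 ± 1.22), Retnlg (1.40 ± 1.13) and the protease Mmp9 (1.18 ± 0.69). Mmp9 was well above background in 7 tumors and 3 controls, and entered the test through its tumor channel alone. The filter therefore favoured a ratio above 0 for Mmp9. Of 11 tested dendritic cell genes 5 were higher and 0 lower. They included the integrin Itgax (2.14 ± 0.84), the antigen presentation genes Cd74 (1.63 ± 0.84) and H2-Ab1 (1.34 ± 0.73), which B cells also express, and Clec10a (1.08 ± 0.56). Of 15 macrophage and Kupffer cell genes 1 was higher and 6 lower, and the median log2 ratio of the list was 0.20. A further 5 of the list passed on p but not on size, with ratios of 0.37 to 0.90, and 5480 of all tested genes likewise did so. The one called higher was Cd14, a receptor for bacterial lipopolysaccharide (4.61 ± 0.79). Clec4f, a lectin of Kupffer cells, fell by 3.33 on the log2 scale, Marco, a scavenger receptor, had a ratio of -2.83 and Cd5l, a secreted macrophage protein, one of -2.66.

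The mean tumor level of the neutrophil list ran from 8.33 to 10.28 over arrays and its control level from 7.74 to 8.34. For the dendritic list the tumor level ran from 8.68 to 10.45. The part of these cells in the ratios of Ptprc and Lck was not tested. The mean ratios of the T cell, regulatory, B cell and pan-leukocyte lists were each lowest on array 8, at -0.05, -0.09, -0.09 and -0.11, while the neutrophil list stood at 1.58 there.

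**Figure D4:**
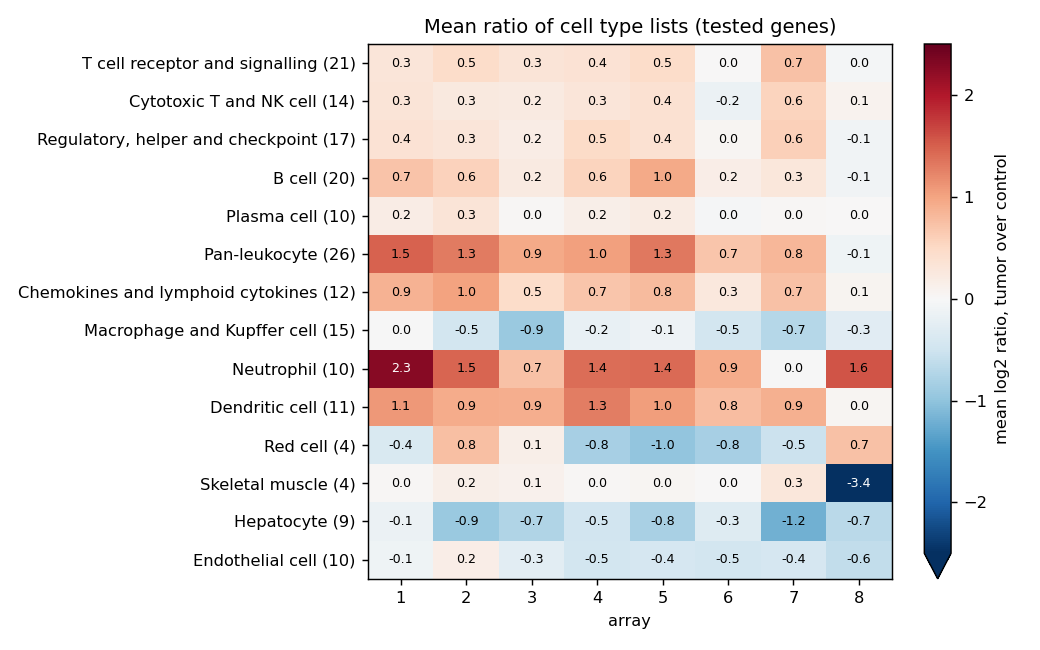
Mean log2 ratio of tumor over control liver over the tested genes of each list (rows, with the number of genes) on each of 8 arrays (columns); red is higher and blue lower in tumor. The pan-leukocyte list runs from -0.11 on array 8 to 1.48 on array 1, and the muscle list stands at -3.45 on array 8.

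Of chemokines and cytokines that draw or support lymphocytes, 12 of the 16 genes named on the array were tested, 3 were higher and 0 lower, with a median of 0.41. Cxcl10, an interferon-induced ligand of CXCR3, a chemokine receptor of T cells, rose by 3.36 ± 1.29 (SD, n = 8, 10.3-fold, adjusted p = 1.1e-04 by limma) on all 8 arrays. Ltb, the lymphotoxin subunit with which lymphocytes organise lymphoid tissue, rose by 1.84 ± 1.14 on 7. Cxcl16, the ligand of CXCR6, rose by 1.58 ± 0.96 on 7. Cxcl9, of the same list, had a ratio of 0.07 ± 1.62 (adjusted p = 0.919 by limma), above 0 on 3 arrays. A further 5 passed on p but not on size, as did 5480 of all tested genes. Those 5 lay on both sides of 0, from -0.99 to 0.99, and some above 0 entered the test through their tumor channel alone. The count of higher genes was 5 without array 8, and the count of lower genes ran from 0 to 2 as arrays were left out. With the processed signals 6 genes of this list were higher and 2 lower, and the median was 0.97.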

How the data were processed

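The deposited scanner output holds, for each spot, median foreground and background intensity in both colours. It also holds processed intensity and a log10 ratio, both made by the authors' scanner software per the file headers. That software was Agilent Feature Extraction (10.9 per the submitters' processing notes, 10.9.1.1 per the file headers, which name design build mm9). No spot was saturated.

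Median signals were corrected with normexp (offset 50) and normalized by loess within arrays, without control and outlier spots, and repeat spots were averaged per probe (limma 3.58.1 and version 1.17.8 of data.table, in R 4.3.3). Channel levels were taken after loess and Aquantile. Accessions were matched to symbols of GRCm38.p6, and 26582 probes had a symbol while 29099 had none. Probes entered the test when either channel was well above background on 4 or more arrays, and a gene was read from its brightest tested probe (lmFit and eBayes against 0, Benjamini-Hochberg over all genes). The call threshold was an adjusted p of 0.05 together with a log2 ratio of 1 in either direction. The procedure was tested on simulated data.

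The 9 genes and all lists were chosen with earlier results of these data known. Genes named are the 9, up to 4 called genes of each list with the largest ratios (the brightest where fewer than 2 were called), and the 10 most like the mean of Cd3d, Cd3e, Cd3g and Lck. Cd8b1, Cxcl9, Psme2 and Dek fall outside this rule and were named after their values were seen. Alternatives were other background corrections, normalizations, filters and variance models, the mean of all probes, each slide row, arrays 1 and 2 averaged, and arrays left out. Leaving out arrays 6 and 8 together was added after the data were seen. Some genes that this rule names are not reported here.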

Additional observations from a re-analysis of the deposited data

Results flagged for a closer look

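In 4 of 24 sets of 8 values (the ratio, the tumor level and the control level of the 8 tested genes), 1 array stood apart from the others by Dixon's criterion, which chance does in about 1 of 20 sets. The tumor of array 8 had a Cd3d level of 6.78, against 8.06 to 8.82 in the other tumors. Its Lck level was 7.42, against 9.39 to 10.64, and its Ptprc level 7.52, against 9.02 to 10.04. The control of array 6 had a Cd3g level of 7.99, against 6.66 to 7.22 in the other controls. The low values share 1 library, so they are not independent of each other.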

How the results depend on the processing

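Jchain, Cd3g, Cd4 and Ms4a1 kept their direction and their side of the call in all 24 alternatives, and Lck, Ptprc and Cd3d in 23. In the slide row of arrays 5 to 8 alone, Lck (0.83) and Ptprc (0.74) were no longer called, so that 1 of the 8 genes was higher, and 848 genes in all were higher. That row holds 4 arrays, among them array 8, and so has fewer samples. Cd3d reached the call without arrays 6 and 8 (1.03). Cd3e, near 0, turned positive with median centring (0.037), in slide row 1 alone (0.089) and without arrays 6 and 8 (0.072), and ran from -0.059 to 0.025 as each array was left out. With the processed signals 1531 genes in all were lower, against 850, and 1 pair of the 8 genes was correlated after adjustment, against 0; the cause was not tested. Leaving out each array in turn gave 0 to 2 such pairs (2 without array 7), 1292 to 1532 genes higher and 836 to 902 lower. Over these, Jchain ran from 1.79 to 2.08, Lck from 1.16 to 1.60, Ptprc from 1.02 to 1.30, Cd3d from 0.60 to 0.91 and Cd4 from -0.67 to -0.39. For lists not covered above, hepatocyte genes lower were 1 without array 2 or 7, macrophage genes higher were 3 without array 8, and the endothelial median was -0.05 with the processed signals and -0.01 without array 3. The slide row as a random block (correlation -0.03) changed no call of the 8 genes. With no filter on dim probes Cd8a entered the fit through the probe above background on array 4 alone (A_52_P150547), at -0.07 with an adjusted p of 0.645; its probe in 10 spots had the opposite sign (0.23). No paired analysis was possible because the arrays form 1 group, in which each array already sets a tumor against a control.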

Other observations

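Genes of the liver's own cells changed beside the lymphocyte markers. Of 9 tested hepatocyte genes 0 were higher and 2 lower: Serpina1c, a protease inhibitor secreted by hepatocytes (-1.87 ± 0.48, SD, n = 8), and Apoa1, the main protein of high-density lipoprotein (-1.05 ± 0.88). Of 10 endothelial genes 1 was higher and 2 lower. Emcn, a surface mucin of endothelium, rose by 1.18 ± 0.69. Clec4g, a lectin of the sinusoidal endothelium, fell by 3.13 on the log2 scale, and Stab2, the scavenger receptor of the same cells, by 1.44. Of 4 tested red cell genes 1 was lower: Alas2, the erythroid enzyme that starts haem synthesis, fell by 2.14. The globin genes Hba-a1 (0.40 ± 0.79) and Hbb-bt (0.42 ± 0.87) were not called.

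The genes whose ratios were most like single markers over the 8 arrays were listed after the data had been seen. For Jchain the closest of 14295 genes was Psme2, a subunit of the interferon-induced proteasome activator (r = 0.96, log2 ratio 0.13 ± 0.29), and for the bright Cd4 probe it was Dek, a chromatin protein (r = 0.97, log2 ratio -0.29 ± 0.26). Neither was called, and the ranks are a description over 8 arrays.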
